A study of Mus musculus with 32 samples.

Results

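The 8 genes described here respond to fasting, insulin and glucocorticoid hormone in the liver: Pck1, G6pc, Tat, Igfbp1, Pdk4, Fkbp5, Mt1 and Mt2. They were chosen by name, and each had 1 probe under its name. All 8 passed the filter on dim probes and belong to the 8853 genes tested. RNA from the livers of 32 female mice of the ApoE3Leiden strain, transgenic for a human apolipoprotein E variant, was hybridised to Illumina bead arrays with 1 liver per array. All mice, controls included, carried the transgene and ate a high-cholesterol diet. A first group of 8 had the diet alone (HC), a further 8 had the statin rosuvastatin in addition (HC+RSV), 8 had ezetimibe, a blocker of intestinal cholesterol uptake (HC+EZE), and 8 had the drugs together (HC+RSV+EZE). Age, dose, length of treatment, feeding state and hour of sampling are not given in the sources used here.

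Between meals the liver releases glucose made from lactate, glycerol and amino acids. Glucagon and glucocorticoids raise transcription of the enzymes of this route, and insulin lowers it, as it does that of Igfbp1 and Pdk4, in part by keeping FOXO transcription factors out of the nucleus. Glucocorticoid acts through its nuclear receptor, which also raises transcription of Tat, Fkbp5 and the metallothioneins. Metallothioneins, small proteins that bind zinc and copper, answer to metals and inflammation as well.

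Arrays had a mean intensity between 126.1 and 279.9 and between 10724 and 13444 detected probes. The number of arrays limits the precision: differences between 2 groups had a median standard error of 0.16 on the log2 scale over all genes tested. For the 8 genes this standard error was larger, from 0.20 for Fkbp5 to 0.43 for G6pc. Each of the 6 chips, as numbered from the array names in the labels, held all 4 groups, but array position followed the groups, since HC arrays took positions A or B, HC+RSV arrays B or C, HC+EZE arrays F or G and HC+RSV+EZE arrays G or H. Array position and ezetimibe could therefore hardly be told apart. By mean correlation with all other arrays, 4 stood apart: HC+RSV replicate 3 (0.926), HC replicate 1 (0.937), HC replicate 8 (0.949) and HC+EZE replicate 1 (0.951). Of the hepatocyte markers, 9 of 10 were kept and those 9 were detected on all 32 arrays. Of 6 kidney and of 6 skeletal muscle markers 1 each had a probe under its name, and 0 were kept. Of 6 adipose tissue markers 3 had such a probe and 2 were kept, without Adipoq, Plin1, Fabp4 and Retn. With so few probes, these lists cannot show whether such tissue was present. Kidney, muscle and fat also express some of the 8 genes.

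None of the 8 genes passed the test for a difference between any of the 4 groups. In limma's moderated F test with Benjamini-Hochberg adjustment over all 8853 genes, 0 of 8 passed at 0.05, where 0.215% of all genes did. G6pc had an unadjusted p of 0.0418 (adjusted p = 0.987), and the other 7 had unadjusted p-values from 0.145 to 0.977. With chip as a block 0 of 8 passed again, against 0.542% of all genes, and the smallest adjusted p was 0.564, for G6pc. The levels of these genes differed widely between livers all the same. The residual standard deviation within groups lay at the 99.3rd percentile of all genes for G6pc, the 98.1st for Mt1, the 97.3rd for Pck1 and the 95.9th for Mt2. Fkbp5, at the 77.3rd percentile, had the smallest spread of the 8. From the lowest to the highest of 32 livers, Mt1 spanned 17.7-fold, G6pc 12.7-fold and Pck1 9.53-fold, and Fkbp5 spanned 3.85-fold.

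**Figure D1:**
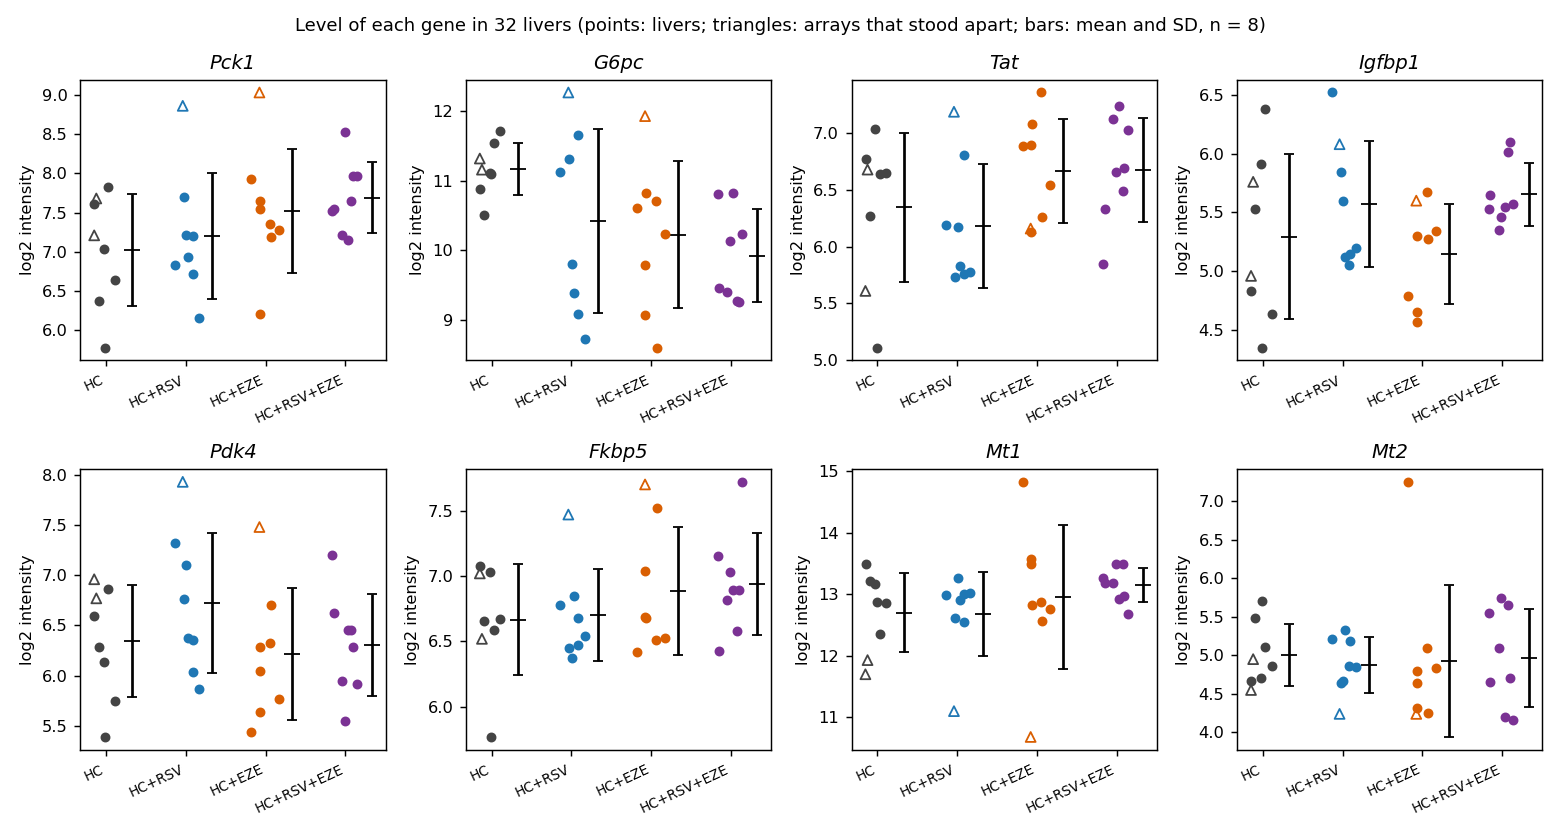
Log2 normalised intensity of the 8 genes (vertical axis, own scale in each panel) in each of 32 livers by group; points are livers, open triangles are the 4 arrays that stood apart, and bars are the mean and SD of 8 livers. The groups overlap in every panel, G6pc runs from 10.51 to 11.72 in HC and down to 8.60 in HC+EZE, and 1 HC+EZE liver lies at 7.25 for Mt2.

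Against HC, 0 of 8 genes passed in HC+RSV (limma, 0% of all genes), 0 in HC+EZE (0.0452%) and 0 with both drugs (0.0452%). At an unadjusted p under 0.05 the counts were 0, 1 and 2 of 8, where 2.65%, 3.64% and 7.43% of all genes had such a p. The median difference of the 8 genes was 0.01, 0.07 and 0.30, beside medians of 0.001, -0.002 and -0.008 over all genes. These 3 comparisons share the HC livers, and the genes did not share a direction: 5 of 8 were above 0 and 3 below in HC+RSV+EZE. For 0 of the 8 genes did the livers of a treated group separate wholly from those of HC, as they did for 0%, 0.0678% and 0.124% of all genes in HC+RSV, HC+EZE and HC+RSV+EZE. All of these are bulk liver samples, in which fewer cells of a type and less RNA per cell cannot be told apart.

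**Figure D2:**
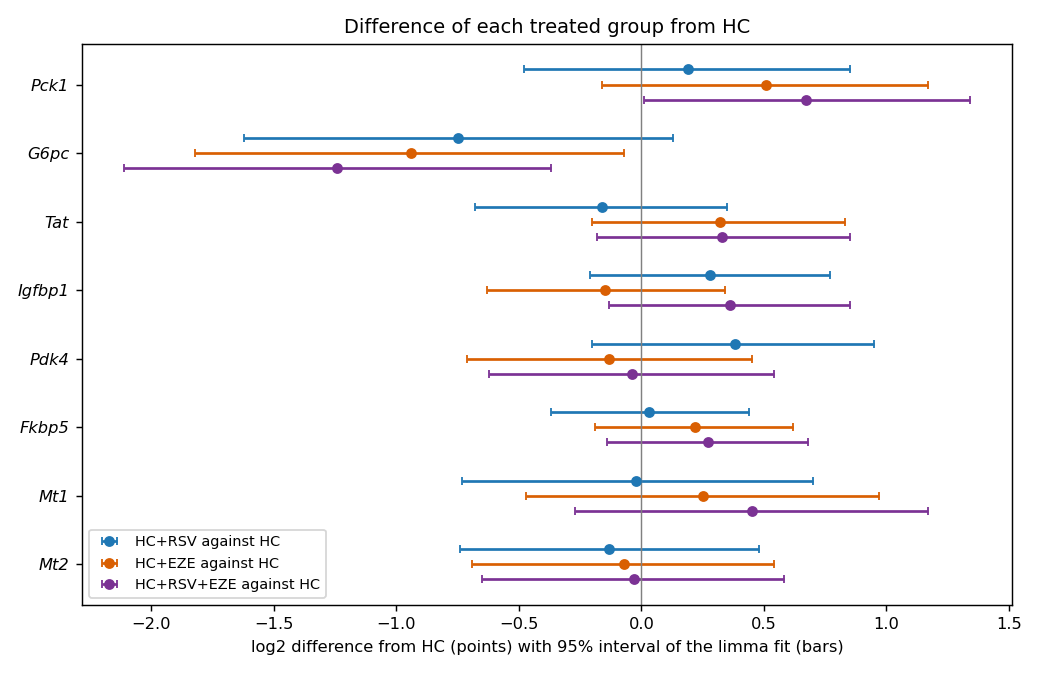
Log2 difference of HC+RSV, HC+EZE and HC+RSV+EZE from HC (horizontal axis) for each of the 8 genes, with the 95% interval of the limma fit as bars. The intervals of G6pc exclude 0 in HC+EZE and HC+RSV+EZE and that of Pck1 in HC+RSV+EZE, before adjustment for the 8853 genes tested.

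G6pc encodes the catalytic subunit of glucose-6-phosphatase, which frees glucose in the last step of its production. The lowest, median and highest log2 intensity of G6pc was 10.51, 11.13 and 11.72 on diet alone, 8.73, 10.47 and 12.27 with rosuvastatin, 8.60, 10.42 and 11.93 with ezetimibe, and 9.26, 9.80 and 10.82 with both drugs. The HC livers lay close together at 11.17 ± 0.38 (SD, n = 8), and the HC+RSV livers were spread over a range that took in the whole of HC, at 10.42 ± 1.33. With ezetimibe the mean was 10.22 ± 1.06, and with both drugs it was 9.93 ± 0.66. Below the lowest HC liver lay 4 of 8 livers in each group with a single drug and 6 of 8 with both drugs, so that the groups overlapped in all 3 comparisons. G6pc differed from HC by -0.75 ± 0.43 (SE) in HC+RSV, with a 95% interval of -1.62 to 0.13 and an unadjusted p of 0.0912 in the limma fit. In HC+EZE it differed by -0.94 ± 0.43 (-1.82 to -0.07, limma's unadjusted p = 0.0344). In HC+RSV+EZE it differed by -1.24 ± 0.43 (-2.11 to -0.37, limma's unadjusted p = 0.00659), 2.36-fold lower. After adjustment over all genes these values did not pass (limma, adjusted p = 0.999, 0.999 and 0.475). The SE of 0.43 pools the spread of all 4 groups, so that the intervals and p-values take the groups as equally spread. The SDs of G6pc ran from 0.38 in HC to 1.33 in HC+RSV.

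Within chips G6pc was lower than HC on 6 of 6 chips in HC+EZE, by -2.28 to -0.60, and on 6 of 6 in HC+RSV+EZE, by -2.28 to -0.90. In HC+RSV it was lower on 4 of 6, with chip differences from -1.61 to 1.39. Of the arrays that stood apart, HC+RSV replicate 3 and HC+EZE replicate 1 were the highest G6pc livers of their groups, at 12.27 and 11.93, while the HC livers among them lay within the other HC livers. Without the 4 arrays G6pc differed from HC by -0.98 ± 0.42, -1.16 ± 0.42 and -1.22 ± 0.41 in HC+RSV, HC+EZE and HC+RSV+EZE, with unadjusted p-values of 0.0268, 0.0099 and 0.00588 in the limma fit and adjusted p-values of 1, 1 and 0.603. With array position as a covariate the sign turned in HC+EZE (1.96 ± 1.70) and HC+RSV+EZE (2.36 ± 2.08), with standard errors about as large as the values. The groups that differed by the second drug were closer: HC+RSV+EZE differed by -0.50 ± 0.43 from HC+RSV and by -0.30 ± 0.43 from HC+EZE. In the order HC, HC+RSV, HC+EZE, HC+RSV+EZE, the gaps between neighbours were 0.75, 0.20 and 0.30, each with an SE of 0.43, and none passed (limma, adjusted p = 0.999, 1 and 1). The interaction of the drugs was 0.45 ± 0.61 for G6pc.

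Pck1 encodes the cytosolic phosphoenolpyruvate carboxykinase, which commits carbon to glucose production. Its lowest, median and highest log2 intensity was 5.78, 7.12 and 7.83 on diet alone, 6.16, 7.07 and 8.86 with rosuvastatin, 6.21, 7.45 and 9.03 with ezetimibe, and 7.15, 7.59 and 8.53 with both drugs. The groups overlapped, with 1 HC+RSV, 2 HC+EZE and 3 HC+RSV+EZE livers above the highest HC liver. The mean was 7.02 ± 0.71 in HC and 7.69 ± 0.45 in HC+RSV+EZE (SD, n = 8). Pck1 differed from HC by 0.19 ± 0.33 with rosuvastatin, 0.51 ± 0.33 with ezetimibe and 0.67 ± 0.33 with both drugs, the last with a 95% interval of 0.01 to 1.34 (limma, unadjusted p = 0.0479, adjusted p = 0.666). These differences had the sign opposite to those of G6pc, whereas with array position as a covariate both genes lay above 0 in the groups with ezetimibe. The 2 highest Pck1 livers of all, HC+EZE replicate 1 at 9.03 and HC+RSV replicate 3 at 8.86, were on arrays that stood apart. Without the 4 arrays Pck1 differed by 0.81 ± 0.28 in HC+RSV+EZE (limma, unadjusted p = 0.00651, adjusted p = 0.607). It was above HC on 4 of 6 chips in HC+RSV+EZE, with chip differences from -0.18 to 2.04. Without HC+RSV replicate 3 the sign in HC+RSV turned, to -0.051.

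The promoter windows of G6pc and Pck1 are shown because they are the genes of the glucose-producing enzymes among the 8. They are RefSeq sequences on GRCm38.p6 from 250 bases before to 50 bases after the start site that the table takes for each gene, the first base of which is position 1, and capitals mark matches to motifs searched on both strands. G6pc lies at chr11:101367466-101367765 on the plus strand, with an insulin response motif, TGTTTTG, from -174 to -168 and a TATA box, TATAAA, from -29 to -24. Pck1 lies at chr2:173152823-173153122 on the plus strand, with the short CREB motif TGACGT on the opposite strand from -91 to -86, written as ACGTCA.
G6pc: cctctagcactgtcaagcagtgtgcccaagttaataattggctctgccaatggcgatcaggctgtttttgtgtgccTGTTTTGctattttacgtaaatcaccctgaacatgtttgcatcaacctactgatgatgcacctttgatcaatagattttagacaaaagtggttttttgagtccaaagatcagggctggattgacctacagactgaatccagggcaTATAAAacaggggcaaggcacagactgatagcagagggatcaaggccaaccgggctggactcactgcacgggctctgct
Pck1: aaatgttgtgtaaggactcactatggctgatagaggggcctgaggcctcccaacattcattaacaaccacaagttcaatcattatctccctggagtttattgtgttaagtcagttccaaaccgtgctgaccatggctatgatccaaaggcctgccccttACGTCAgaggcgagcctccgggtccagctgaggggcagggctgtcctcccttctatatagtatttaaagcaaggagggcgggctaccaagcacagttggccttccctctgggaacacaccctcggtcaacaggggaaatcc
Of 32851 promoter windows of this length, 6.28% held TGTTTTG, 13.6% held TATAAA and 7.51% held TGACGT. The longer CREB motif TGACGTCA, which contains TGACGT, stood in 1.79% of windows and in none of the 8 genes. Nor did any of the 8 windows hold the FOXO motif TGTTTAC (3.65% of windows), the palindromic glucocorticoid receptor motif (0.00913%) or TGTTCT, which is one arm of it (19.0%). For 6 of the 8 genes position 1 is also the outer end of the annotated gene, while for Mt1 it lies 206 bases and for Tat 4358 bases inside it. The windows cover only 300 bases, and no match says only that these letters are not in them.

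**Figure D3:**
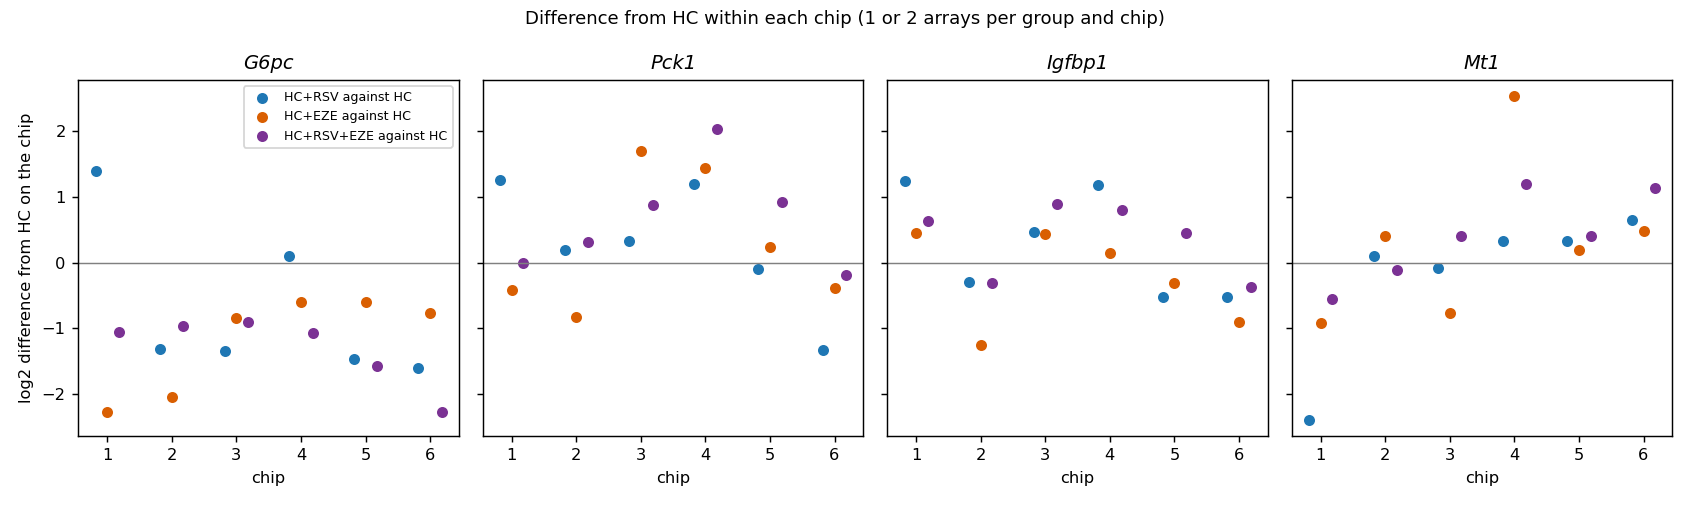
Log2 difference of each treated group from HC within each of the 6 chips (horizontal axis) for G6pc, Pck1, Igfbp1 and Mt1, with 1 or 2 arrays per group and chip. G6pc lies below 0 on all 6 chips in HC+EZE and HC+RSV+EZE, whereas the other 3 genes lie on both sides of 0.

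Tat encodes tyrosine aminotransferase, which starts the breakdown of tyrosine and is a classic glucocorticoid target of hepatocytes. Its lowest, median and highest log2 intensity was 5.11, 6.65 and 7.04 on diet alone, 5.73, 6.0 and 7.19 with rosuvastatin, 6.13, 6.72 and 7.36 with ezetimibe, and 5.85, 6.68 and 7.24 with both drugs. The livers of all groups overlapped, and the median was lowest in HC+RSV. Tat differed from HC by -0.16 ± 0.25, 0.32 ± 0.25 and 0.33 ± 0.25 in HC+RSV, HC+EZE and HC+RSV+EZE (limma, adjusted p = 0.999, 0.999 and 0.738). Averaged over rosuvastatin, the livers with ezetimibe stood 0.41 ± 0.18 above those without (limma, unadjusted p = 0.029, adjusted p = 0.45), and on 3 of 6 chips. The macrophage markers ran opposite to Tat between livers of a group: the deviations of their mean correlated with those of Tat at r = -0.71 over 32 livers, as a description. For the same markers r was -0.53 with Fkbp5, -0.46 with Pck1, -0.29 with Pdk4, -0.25 with Igfbp1 and -0.20 with G6pc. It was 0.22 with Mt1 and 0.31 with Mt2. Of that list 9 of 12 markers had a probe under their name and 8 were kept, without Cd68, Csf1r, Marco and Cd5l. The summed intensity of the kept markers ran from 5680 to 18200 on diet alone and 4320 to 10500 with rosuvastatin. It ran from 7140 to 11800 with ezetimibe and 4630 to 11800 with both drugs. The part of these markers in the Tat values was not tested.

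Igfbp1 encodes a secreted binding protein of insulin-like growth factors that insulin represses. The probe was dim: it was detected on all 8 arrays in both groups with rosuvastatin but on 6 of 8 in HC and in HC+EZE, 28 of 32 in all. The lowest, median and highest log2 intensity of Igfbp1 was 4.35, 5.24 and 6.38 on diet alone, 5.05, 5.40 and 6.52 with rosuvastatin, 4.57, 5.29 and 5.67 with ezetimibe, and 5.35, 5.56 and 6.10 with both drugs. The groups overlapped, and the lowest livers were in the groups without rosuvastatin. Igfbp1 differed from HC by 0.28 ± 0.24 with rosuvastatin, -0.15 ± 0.24 with ezetimibe and 0.36 ± 0.24 with both drugs (limma, adjusted p = 0.999, 0.999 and 0.711). Averaged over ezetimibe, the livers with rosuvastatin stood 0.39 ± 0.17 above those without, 1.31-fold, with a 95% interval of 0.05 to 0.74 (limma, unadjusted p = 0.0278, adjusted p = 1). That difference was above 0 on 6 of 6 chips, by 0.01 to 0.93, and was 0.40 ± 0.18 without the 4 arrays that stood apart.

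Pdk4 encodes a kinase that shuts the pyruvate dehydrogenase complex and so spares pyruvate in fasting. Its lowest, median and highest log2 intensity was 5.39, 6.44 and 6.96 on diet alone, 5.87, 6.57 and 7.93 with rosuvastatin, 5.44, 6.17 and 7.48 with ezetimibe, and 5.55, 6.37 and 7.20 with both drugs. All groups overlapped, and 3 HC+RSV livers lay above the highest HC liver. Pdk4 differed from HC by 0.38 ± 0.28 with rosuvastatin, -0.13 ± 0.28 with ezetimibe and -0.04 ± 0.28 with both drugs (limma, adjusted p = 0.999, 0.999 and 0.977), and the last of these turned to 0.13 ± 0.25 without the 4 arrays that stood apart.

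Fkbp5 encodes an immunophilin that binds the glucocorticoid receptor complex and dampens it, and is itself a receptor target. Its lowest, median and highest log2 intensity was 5.77, 6.67 and 7.08 on diet alone, 6.37, 6.61 and 7.47 with rosuvastatin, 6.42, 6.68 and 7.70 with ezetimibe, and 6.43, 6.89 and 7.72 with both drugs. The groups overlapped, and 1 HC liver lay well below all others. Fkbp5 differed from HC by 0.03 ± 0.20, 0.22 ± 0.20 and 0.27 ± 0.20 in HC+RSV, HC+EZE and HC+RSV+EZE, with 95% intervals of -0.37 to 0.44, -0.19 to 0.62 and -0.14 to 0.68 (limma, adjusted p = 0.999, 0.999 and 0.731). The first of these was -0.04 ± 0.20 without the 4 arrays. With array position as a covariate all of them grew. Fkbp5 then differed from HC by 0.66 ± 0.23, 2.84 ± 0.68 and 3.52 ± 0.83 in the same order (limma, adjusted p = 0.379, 0.2 and 0.149). Position and ezetimibe could hardly be told apart in that fit.

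Mt1 and Mt2 encode the metallothioneins of the liver. The lowest, median and highest log2 intensity of Mt1 was 11.70, 12.87 and 13.49 on diet alone, 11.10, 12.95 and 13.27 with rosuvastatin, 10.68, 12.85 and 14.83 with ezetimibe, and 12.68, 13.19 and 13.50 with both drugs. The groups overlapped, and HC+EZE held both the lowest and the highest liver of all 32. Mt1 differed from HC by -0.02 ± 0.35 with rosuvastatin, 0.25 ± 0.35 with ezetimibe and 0.45 ± 0.35 with both drugs (limma, adjusted p = 0.999, 0.999 and 0.748). The lowest Mt1 livers of HC, HC+RSV and HC+EZE were all on arrays that stood apart, and without those 4 arrays Mt1 differed by -0.09 ± 0.24, 0.28 ± 0.24 and 0.16 ± 0.24.

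The Mt2 probe was near background, with detection on 6 of 8 arrays in HC and in HC+RSV, 4 of 8 in HC+EZE and 5 of 8 with both drugs, 21 of 32 in all. Its lowest, median and highest log2 intensity was 4.55, 4.91 and 5.70 on diet alone, 4.24, 4.86 and 5.33 with rosuvastatin, 4.24, 4.72 and 7.25 with ezetimibe, and 4.16, 4.90 and 5.74 with both drugs. The groups overlapped, and 1 HC+EZE liver stood far above all others. Mt2 differed from HC by -0.13 ± 0.30, -0.07 ± 0.30 and -0.03 ± 0.30 in HC+RSV, HC+EZE and HC+RSV+EZE (limma, adjusted p = 0.999, 0.999 and 0.981). With array position as a covariate Mt2 differed from HC by -0.88 ± 0.37, -3.24 ± 1.12 and -3.96 ± 1.37 in the same order (limma, adjusted p = 0.447, 0.299 and 0.275). At this signal a group difference in Mt2 was not detectable, and its signs turned under several settings.

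HC+EZE replicate 5 was the highest of all 32 livers in both metallothioneins. Mt1 stood there at 14.83, with the other 31 livers at most at 13.58, and Mt2 at 7.25, with the others at most at 5.74. The acute phase gene Saa1, serum amyloid A, stood at 9.02 in that liver against at most 5.75 in the others, and Saa3 at 8.87 against at most 8.29. These amyloid genes were the nearest in pattern to Mt2 among 8852 genes compared, as measured by Pearson's r of deviations from group means over 32 livers, at 0.82 for Saa1 and 0.74 for Saa3. Without HC+EZE replicate 5 the r was 0.57 and 0.63 over 31 livers, and Saa1 was detected on 12 of 32 arrays.

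Another single liver, HC replicate 7, was the lowest of all 32 in 5 of the 8 genes and was not among the arrays that stood apart, with a mean correlation of 0.963. Its level was 5.78 for Pck1, 5.11 for Tat, 4.35 for Igfbp1, 5.39 for Pdk4 and 5.77 for Fkbp5. G6pc at 11.10 and Mt1 at 12.88 lay in the middle of the HC group there, and Mt2 at 5.70 was the highest of HC. Without this liver the differences of Pck1, Tat, Igfbp1, Pdk4 and Fkbp5 from HC were 0.49, 0.15, 0.22, -0.18 and 0.14 in HC+RSV+EZE, where they had been 0.67, 0.33, 0.36, -0.04 and 0.27. In HC+EZE they went from 0.51, 0.32, -0.15, -0.13 and 0.22 to 0.33, 0.14, -0.28, -0.27 and 0.09. In HC+RSV they went from 0.19, -0.16, 0.28, 0.38 and 0.03 to 0.008, -0.34, 0.14, 0.24 and -0.10, so that Fkbp5 turned sign. The differences of G6pc without it were -0.76, -0.95 and -1.25 in HC+RSV, HC+EZE and HC+RSV+EZE. The liver was picked out after its values were seen.

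Between livers of the same group, several of the 8 genes varied together. Pearson's r of deviations from group means was taken for all 28 pairs over 32 livers, with 100000 permutations of livers within groups (two-sided) and Benjamini-Hochberg adjustment over the pairs. Of the 28 pairs, 12 passed at 0.05, 7 with positive and 5 with negative r, and with Spearman's rho 1 passed. The livers HC+RSV replicate 3 and HC+EZE replicate 1, both on arrays that stood apart, were 1.85 and 1.71 above their group mean for G6pc, 1.66 and 1.51 for Pck1, 1.21 and 1.27 for Pdk4 and 0.77 and 0.81 for Fkbp5, and -1.59 and -2.27 from it for Mt1. Without the 4 arrays that stood apart 1 of 28 pairs passed, Igfbp1 and Pdk4. With chip means removed 17 passed. There the livers were still permuted within groups only and across chips, so that the p-values do not allow for the chip means taken out.

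Igfbp1 and Pdk4 varied together between livers, with r = 0.61 (permutation test, adjusted p = 0.00742) and rho = 0.60 (permutation, adjusted p = 0.0291). Without the 4 arrays r was 0.63 over 28 livers (permutation, adjusted p = 0.0255), with chip means removed 0.68, and without the 2 livers farthest from the median of Igfbp1 0.53. The r was 0.58 among the 8 HC livers, 0.83 with rosuvastatin, 0.67 with ezetimibe and 0.22 with both drugs.

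Mt1 and Mt2 had r = 0.63 (permutation, adjusted p = 0.0142) and rho = 0.49 (permutation, adjusted p = 0.0608). Without the 4 arrays r was 0.69 (permutation, adjusted p = 0.0902), and without HC+EZE replicates 1 and 5, the livers farthest from the median of Mt1, it was 0.46. By group r was 0.22 on diet alone, 0.70 with rosuvastatin, 0.74 with ezetimibe, and 0.92 with both drugs. Whether the probes of these similar genes bind each other's transcript was not tested.

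Pck1 and G6pc had r = 0.52 (permutation, adjusted p = 0.0204) and rho = 0.33 (permutation, adjusted p = 0.173). The r was 0.27 without HC+EZE replicate 1 and HC+RSV replicate 3 and 0.27 without all 4 arrays (permutation, adjusted p = 0.47). Over all 32 livers with chip means removed r was 0.53 (permutation across chips, with the limit given above, adjusted p = 0.00975). Pdk4 and Mt1 ran opposite, with r = -0.62 (permutation, adjusted p = 0.00742) and rho = -0.44 (permutation, adjusted p = 0.109), and r was -0.23 without the 4 arrays (permutation, adjusted p = 0.507). For Fkbp5 and Mt1 r went from -0.52 to -0.20 and for Pck1 and Mt1 from -0.49 to 0.09 in the same step. Fkbp5 and Mt2 kept a similar size, -0.51 with all livers (permutation, adjusted p = 0.0204) and -0.43 without the 4 arrays (permutation, adjusted p = 0.343). Over the 32 livers the deviation of Mt1 correlated with the mean correlation of its array with the other arrays at r = 0.70, and that of Pck1 at -0.54, as a description. The neutrophil markers ran with Mt1 at r = 0.63 and with Mt2 at 0.32, also as a description. They ran opposite to the other genes: Fkbp5 (-0.62), G6pc (-0.52), Pck1 (-0.50), Pdk4 (-0.47), Tat (-0.37) and Igfbp1 (-0.19). Values without the 4 arrays were not taken for these markers. Of that list 5 of 7 had a named probe, 3 were kept, without Ly6g, Mpo, Ngp and Camp, and 1 was detected on all arrays. Its summed intensity ran from 222 to 694 on diet alone, 105 to 812 with rosuvastatin, 144 to 1060 with ezetimibe, and 246 to 767 with both drugs, and its part in the Mt1 values was not tested.

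**Figure D4:**
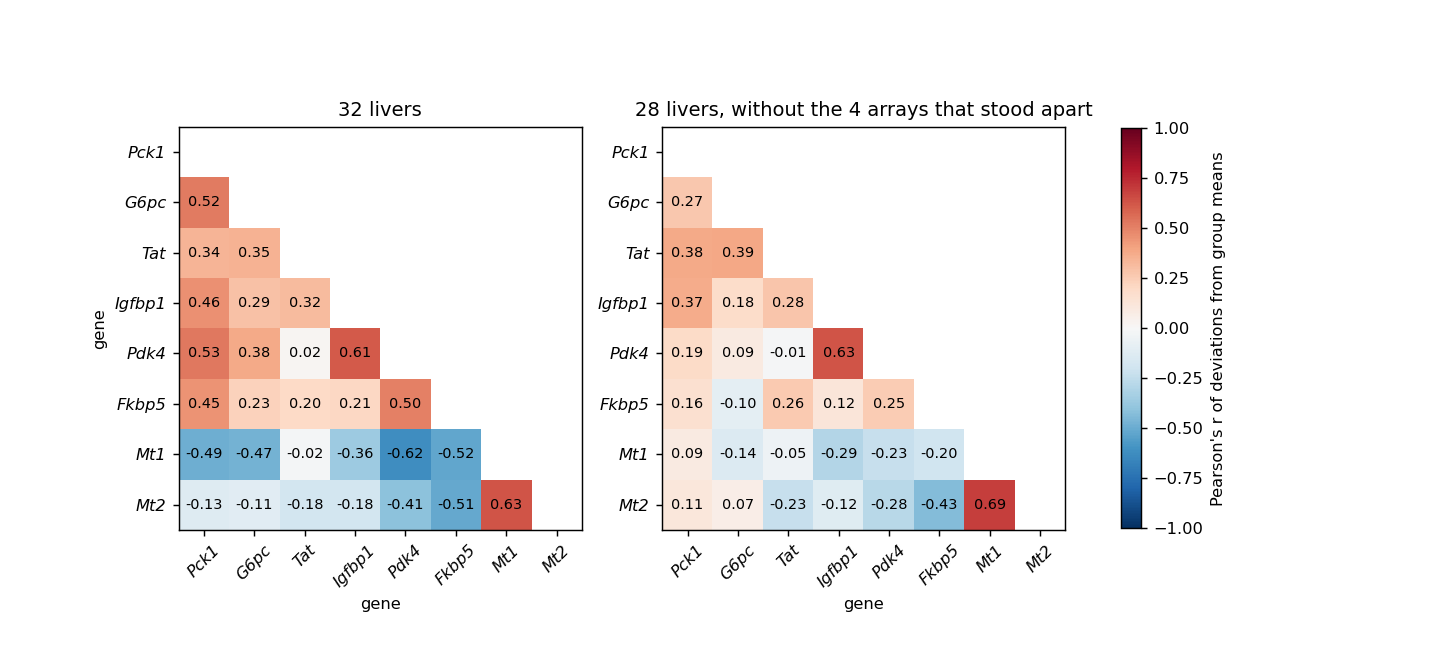
Pearson's r between the deviations from group means of each pair of the 8 genes, over 32 livers (left) and over 28 livers without the 4 arrays that stood apart (right); red is positive and blue negative. Igfbp1 with Pdk4 stays at 0.61 and 0.63, while Pdk4 with Mt1 goes from -0.62 to -0.23.

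**Figure D5:**
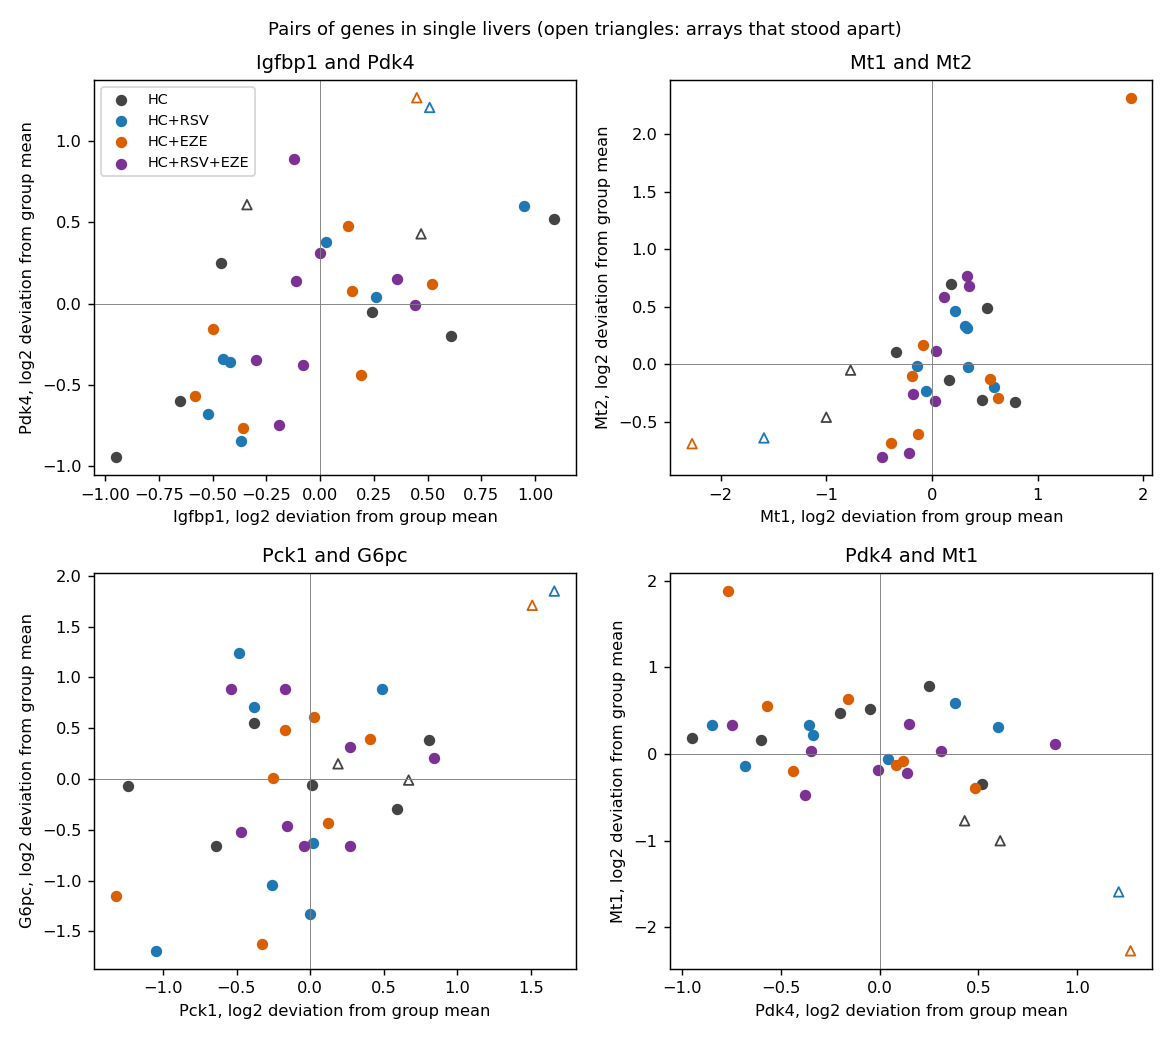
Deviation from the group mean (log2) in single livers for 4 pairs of genes, coloured by group, with the 4 arrays that stood apart as open triangles. In the panels of Pck1 with G6pc and of Pdk4 with Mt1, the HC+RSV and HC+EZE triangles lie at the far end of the cloud, and 1 HC+EZE liver lies far up and right for Mt1 with Mt2.

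The promoter windows of these pairs are shown because the genes varied together, on the build and with the capitals described above. Igfbp1 lies at chr11:7197537-7197836 on the plus strand, with TGTTTTG on the opposite strand from -108 to -102, written as CAAAACA. Pdk4 lies at chr6:5496229-5496528 on the minus strand and held none of the motifs searched. The metallothionein genes are neighbours: Mt2 lies at chr8:94172368-94172667 and Mt1 at chr8:94178839-94179138, both on the plus strand, with 6171 bases between the windows. Counted from the start site of the table, Mt1 held the metal response motif TGCACNC from -23 to -17 and from 3 to 9, TGCGCNC from 21 to 27, and TGACGT on the opposite strand from -78 to -73. Mt2 held TGCACNC from -223 to -217 and, on the opposite strand, from -50 to -44, and TGCGCNC from -128 to -122 and, on the opposite strand, from 5 to 11.
Igfbp1: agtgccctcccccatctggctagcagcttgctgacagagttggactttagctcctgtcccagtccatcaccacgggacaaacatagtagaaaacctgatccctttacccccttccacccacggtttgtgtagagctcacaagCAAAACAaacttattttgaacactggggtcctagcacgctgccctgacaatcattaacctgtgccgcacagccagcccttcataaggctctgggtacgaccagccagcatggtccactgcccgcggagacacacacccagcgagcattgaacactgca
Pdk4: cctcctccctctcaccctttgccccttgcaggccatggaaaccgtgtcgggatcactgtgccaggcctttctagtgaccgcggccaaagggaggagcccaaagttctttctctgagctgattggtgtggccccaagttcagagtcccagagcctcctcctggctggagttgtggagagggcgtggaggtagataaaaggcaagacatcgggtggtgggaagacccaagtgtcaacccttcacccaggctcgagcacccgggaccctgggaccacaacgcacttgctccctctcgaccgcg
Mt1: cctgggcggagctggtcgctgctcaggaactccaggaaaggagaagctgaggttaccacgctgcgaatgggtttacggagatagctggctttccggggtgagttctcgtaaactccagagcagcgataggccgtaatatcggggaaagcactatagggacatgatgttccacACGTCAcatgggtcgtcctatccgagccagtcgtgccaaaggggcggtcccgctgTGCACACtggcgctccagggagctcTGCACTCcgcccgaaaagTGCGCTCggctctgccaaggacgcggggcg
Mt2: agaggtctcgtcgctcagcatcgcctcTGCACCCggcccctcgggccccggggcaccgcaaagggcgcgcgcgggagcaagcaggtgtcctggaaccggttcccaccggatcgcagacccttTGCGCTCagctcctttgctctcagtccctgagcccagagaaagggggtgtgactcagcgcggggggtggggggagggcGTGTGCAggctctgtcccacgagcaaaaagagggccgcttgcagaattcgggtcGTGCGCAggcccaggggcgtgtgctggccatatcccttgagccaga
TGCACNC stood in 12.6% and TGCGCNC in 15.4% of the 32851 windows, so that single matches are common. The windows of Tat and Fkbp5 held none of the motifs searched.

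Beside the amyloid genes, the genes nearest in pattern to each of the 8 were listed by the same measure, as a description over livers that share arrays and chips. Nearest to Pck1 were Asb13 (0.78), Mmd (0.73) and Pim3 (0.73), and nearest to G6pc were Slc25a25 (0.75), Gtf2e1 (0.68) and Insc (0.68). Igfbp1 had Slc35f5 (0.67), Fgf21, a hormone of the fasted liver (0.66), and Frk (0.66), with Slc35f5 detected on 21 and Frk on 27 of 32 arrays. Without the 4 arrays that stood apart these values were 0.66, 0.80 and 0.61. Nearest to Tat were Mblac2 (0.71), Idi1, an enzyme of cholesterol synthesis (0.71), and Wdr13 (0.68). Pdk4 had Zw10 (0.78), Nedd4l (0.77) and Fbxw5 (0.76), and Fkbp5 had Crat, carnitine acetyltransferase (0.76), Bcl7a (0.76) and Lysmd1 (0.76). Without the 4 arrays the values in the same order were 0.64, 0.68 and 0.77 for Pck1 and 0.72, 0.64 and 0.58 for G6pc. They were 0.68, 0.68 and 0.58 for Tat, 0.67, 0.67 and 0.58 for Pdk4, and 0.70, 0.69 and 0.72 for Fkbp5. For Mt1 the values of Zap70, Lrrc8a and Anapc13 went from 0.79, 0.79 and 0.78 to 0.40, 0.52 and 0.32 without the 4 arrays. After them Prtn3 was nearest to Mt2, at 0.70, which went to 0.18 without HC+EZE replicate 5.

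The routes around these genes were read from 11 gene lists with 143 genes, of which 111 were measured. Of the list of glucose output, which holds Pck1 and G6pc, 10 of 12 genes were measured and 0 passed in any comparison (limma). Its median difference from HC was -0.06 with rosuvastatin, -0.07 with ezetimibe and -0.17 with both drugs, with 6, 7 and 9 of 10 genes below 0. At an unadjusted p under 0.05 there were 0, 1 and 4 of 10, beside 2.65%, 3.64% and 7.43% of all genes. The 1 in HC+EZE was G6pc, and G6pc and Pck1 were among the 4 in HC+RSV+EZE, where Pck1 was the 1 gene above 0. These counts therefore repeat in part the values of G6pc and Pck1 given above. Genes of the insulin-like growth factor system, a list of 11 that holds Igfbp1, had 10 measured and 0 passing, with 10, 6 and 7 above 0 in HC+RSV, HC+EZE and HC+RSV+EZE and medians of 0.12, 0.08 and 0.14. Of 14 measured fasting targets of the nuclear receptor PPARA, 0 passed, and 10, 11 and 9 were below 0 in HC+RSV, HC+EZE and HC+RSV+EZE, with medians of -0.09, -0.14 and -0.13. Of 16 measured genes of amino acid breakdown 0 passed, with medians of 0.00, -0.02 and -0.09.

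Of 14 measured glucocorticoid targets 1 passed, Per1, a repressor of the circadian clock that glucocorticoid also induces. It rose by 1.38 ± 0.21 in HC+RSV+EZE against HC (limma, adjusted p = 0.00208), and the call was lost with array position as a covariate, at 1.46 ± 1.09 (limma, adjusted p = 0.609). In the other 43 of 44 fits of that comparison Per1 passed. Without array position it also passed in HC+RSV+EZE against HC+RSV (limma, adjusted p = 0.00985) and for ezetimibe averaged over rosuvastatin (limma, adjusted p = 6.91e-05). Of all genes 0.0452%, 0.0565% and 0.339% passed in these comparisons, in the order given. The median difference of the glucocorticoid targets was -0.13, 0.01 and 0.00 in HC+RSV, HC+EZE and HC+RSV+EZE, so the list as a whole lay near the median of all genes in the groups with ezetimibe. Of the 6 measured genes of the glucocorticoid receptor complex 0 passed, with medians of -0.02, -0.01 and 0.01.

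Between the treated groups 0 of the 8 genes passed either: 0 in HC+RSV+EZE against HC+RSV (0.0565% of all genes), 0 in HC+RSV+EZE against HC+EZE (0%) and 0 in HC+EZE against HC+RSV (0.0339%). Averaged over the other drug, 0 passed for ezetimibe (0.339%) and 0 for rosuvastatin (0%), and 0 for the interaction (0%). At an unadjusted p under 0.05 there were 0, 1 and 0 in the comparisons between treated groups, against 7.33%, 1.71% and 4.51% of all genes. For ezetimibe there were 3 (9.44% of all genes), for rosuvastatin 1 (2.36%) and for the interaction 0 (1.72%). The 3 for ezetimibe were Pck1 at 0.50 ± 0.23, G6pc at -0.72 ± 0.30 and Tat at 0.41 ± 0.18 (limma, adjusted p = 0.489, 0.42 and 0.45). G6pc was lower on 6 of 6 chips in that comparison, Pck1 higher on 4 of 6 and Tat on 3 of 6, and array position ran with ezetimibe throughout.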

How the data were processed

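RNA of 32 mouse livers was measured on Illumina bead arrays. The intensity of each probe was deposited by the authors before normalization between arrays, with some values below 0, so that background had been subtracted by a step not given in the sources used here. A detection fraction between 0 and 1 was deposited with each intensity, and 1 minus this fraction was used as detection p. The authors also deposited normalized log2 values for 15505 of 25697 probes, for which the submitters' processing notes name limma.

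Intensities were corrected by normexp with detection p (limma's nec, offset 16), quantile normalized and log2 transformed with limma 3.58.1 in R 4.3.3. The filter asked for detection p under 0.05 on 8 or more of the 32 arrays and kept 12844 probes, 12026 with 1 gene name, 0 with several and 818 unnamed. Each gene was represented by its probe of highest mean, giving 8853 genes. The 4 groups were fitted together (lmFit, eBayes, 28 residual degrees of freedom), and 6 pairwise comparisons, 2 comparisons averaged over the other drug and the interaction were adjusted over all genes by Benjamini-Hochberg at 0.05. Livers came from separate animals, so that p-values cover animal and array variation together. No array pair was identical (highest correlation 0.989).

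The 8 genes and all lists were chosen with earlier results of these data known. The rule named the 8 genes, list members that passed over all genes, and for each of the 8 the 3 genes with the highest r. Saa1 and Saa3 were followed in single livers after their r was seen. Alternatives were raw intensities raised to the offset, equal medians, the authors' values, no or stricter filtering (detection p under 0.01 on 16 arrays), all kept probes, blocks for chip or for replicate number, position as covariate, array weights, omission of the 4 arrays of lowest mean correlation and of each array in turn. Omission of HC+RSV replicate 3 together with HC+EZE replicate 1, and the r of nearest genes without given arrays, were added after seeing the data. RefSeq promoter windows were matched for 8 of 8 genes. The code of the fit was run on simulated data with known changes and independent errors. Chip, position and outlying arrays were not simulated, so that run does not show what size of difference could be found here. Same-numbered arrays were compared and not treated as pairs.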

Additional observations from a re-analysis of the deposited data

Results flagged for a closer look

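Within the groups of 8 livers, 4 values of the 8 genes stood far from the rest by Dixon's test at its 95% critical value of 0.526, the gap to the nearest liver divided by the range of the group. In all, 32 combinations of a gene and a group were examined, and chance gives about 1 in 20. The Mt2 level of HC+EZE replicate 5 was the highest of its group at 7.25, with the next liver at 5.10 (ratio 0.713). The Mt1 level of HC+RSV replicate 3 was the lowest of its group at 11.10, with the next at 12.55 (ratio 0.665), and the Fkbp5 level of the same liver was the highest at 7.47, with the next at 6.85 (ratio 0.565). The Fkbp5 level of HC replicate 7 was the lowest of its group at 5.77, with the next at 6.52 (ratio 0.571). HC+RSV replicate 3 lay on the array with the lowest mean correlation with the others, 0.926, and the part of that array in its values was not tested.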

How the results depend on the processing

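In 44 fits, 12 settings and 32 with a single array left out, 0 of the 8 genes passed in any comparison. Of 40 differences (8 genes, against HC in 3 groups and for each drug averaged over the other), 17 kept their sign in every fit, 23 turned in some setting and 13 with a single array left out. Values that kept their sign could also move far with array position, as given above for Fkbp5 and Mt2. For Tat in HC+RSV+EZE the difference went from 0.33 to 2.84 ± 1.2. The values that turned follow, as log2 differences unless called r. With array position as a covariate the values were in HC+RSV 0.32 for Tat, in HC+EZE 1.96 for G6pc, 1.25 for Igfbp1, 2.50 for Pdk4, -2.02 for Mt1, in HC+RSV+EZE 2.36 for G6pc, 3.21 for Pdk4, -2.36 for Mt1, with ezetimibe averaged 2.19 for G6pc, 1.36 for Igfbp1, 2.35 for Pdk4, -1.91 for Mt1, -3.16 for Mt2, with rosuvastatin averaged 0.17 for G6pc, 0.41 for Tat, -0.45 for Mt1. Without the 4 arrays that stood apart the values were in HC+RSV -0.043 for Fkbp5, in HC+RSV+EZE 0.13 for Pdk4, with ezetimibe averaged -0.028 for Mt2, with rosuvastatin averaged -0.10 for Mt1, and an r of 0.089 for Pck1 and Mt1, 0.11 for Pck1 and Mt2, -0.098 for G6pc and Fkbp5, 0.074 for G6pc and Mt2, -0.008 for Tat and Pdk4. With chip as a block the values were in HC+RSV 0.026 for Mt1, in HC+EZE 0.010 for Mt2, in HC+RSV+EZE 0.17 for Mt2, with rosuvastatin averaged -0.007 for Fkbp5, 0.058 for Mt2. With chip means removed the values were an r of -0.16 for Tat and Pdk4, -0.002 for Tat and Fkbp5, 0.073 for Tat and Mt1, 0.086 for Tat and Mt2. With array weights the values were in HC+RSV -0.055 for Fkbp5, 0.016 for Mt1, in HC+RSV+EZE 0.083 for Pdk4, with ezetimibe averaged -0.016 for Mt2. With the authors' log2 values the values were in HC+EZE 0.10 for Igfbp1, with ezetimibe averaged 0.13 for Igfbp1, -0.64 for Mt2, with rosuvastatin averaged 0.021 for Mt2. Without HC+RSV replicate 3 and HC+EZE replicate 1 the values were in HC+RSV -0.051 for Pck1, -0.078 for Fkbp5, 0.21 for Mt1, in HC+EZE 0.026 for Mt2. With equal medians the values were in HC+RSV -0.009 for Fkbp5, with ezetimibe averaged -0.058 for Mt2, with rosuvastatin averaged -0.033 for Fkbp5. Without background correction the values were in HC+EZE 0.11 for Mt2, in HC+RSV+EZE 0.10 for Mt2. With a single array left out the ranges were in HC+RSV -0.051 to 0.34 for Pck1, -0.096 to 0.091 for Fkbp5, -0.16 to 0.21 for Mt1, in HC+EZE -0.28 to 0.010 for Igfbp1, -0.018 to 0.57 for Mt1, -0.41 to 0.026 for Mt2, in HC+RSV+EZE -0.18 to 0.067 for Pdk4, -0.14 to 0.080 for Mt2, with ezetimibe averaged -0.10 to 0.045 for Igfbp1, -0.15 to 0.069 for Mt2, with rosuvastatin averaged -0.022 to 0.10 for Fkbp5, -0.070 to 0.23 for Mt1, -0.10 to 0.12 for Mt2. The count of correlated pairs, 12 of 28, was 1 without the 4 arrays, 17 with chip means removed and 13 with the authors' values. Mt2 had no value under the stricter filter. The replicate numbers were not treated as pairs in the main fit. Same-numbered HC+RSV and HC+EZE arrays shared a chip, so that chip and replicate number could not be told apart for them. Between same-numbered arrays r was over 0.1 in 30 of 48 pairs and not in the other 18. It ran from -0.24 to 0.76 with a median of 0.17, against -0.058 for other pairs, and 6 of 32 arrays correlated best with their own number. With the replicate block 0 of the 8 genes passed and G6pc in HC+RSV+EZE had an adjusted p of 0.315 (limma). The block moved the count over all genes from 19 to 20 by F test, from 30 to 53 for ezetimibe, from 5 to 16 in HC+RSV+EZE against HC+RSV, from 3 to 4 in HC+EZE against HC+RSV, and against HC from 4 to 9 in HC+RSV+EZE and from 4 to 8 in HC+EZE. Counts over all genes moved with the setting: from 19 by F test to 48 with chip as a block, 8 with the authors' values and 0 with array position, from 30 for ezetimibe to 89, 31 and 0, from 4 to 10, 2 and 0 in HC+RSV+EZE against HC, from 4 to 4, 0 and 0 in HC+EZE against HC, from 5 to 47, 5 and 0 in HC+RSV+EZE against HC+RSV, and from 3 to 6, 2 and 0 in HC+EZE against HC+RSV. The causes of these changes were not tested. Signal over background limits Mt2 and Igfbp1, detected on 21 and 28 of 32 arrays.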

Other observations

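The lists of routes next to the 8 genes that were not described above held no calls. Of 8 measured regulators of gluconeogenesis, 11 genes of glycolysis and the fed state, 10 of insulin signalling and FOXO targets, 9 of the pyruvate dehydrogenase complex and 11 of zinc and metal response, 0 passed in any of the 9 comparisons (limma, Benjamini-Hochberg over 8853 genes). Their median differences from HC in HC+RSV+EZE were 0.05, -0.05, 0.14, -0.01 and -0.06, with 0, 2, 0, 0 and 1 genes at an unadjusted p under 0.05, which 7.43% of all genes had.

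Nearest to the threshold, and chosen after their values were seen, were Slc30a10 of the metal list, a manganese exporter, and Ppp1r3c of the fed-state list, which directs a phosphatase to glycogen. With ezetimibe averaged over rosuvastatin, Slc30a10 differed by -0.88 ± 0.23 (limma, adjusted p = 0.0912) and Ppp1r3c by -0.64 ± 0.17 (limma, adjusted p = 0.0948).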
